A study of Mus musculus with 6 samples.

Results

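The genes described here are 10 genes that mark T cells or act as their checkpoints, measured in tumors of mice with an activated form of the kinase NIK. They were chosen by name, as the gene entries Cd3d, Cd3e, Cd3g, Cd2, Lck, Cd4, Cd8a, Foxp3, Ctla4 and Pdcd1 among the 23358 entries of the count table. Each of the 10 names matched 1 entry, and all 10 passed the filter on low counts in both comparisons made below.

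A T cell recognises antigen through its T cell receptor, which cannot signal on its own and is held at the membrane by the CD3 chains. The kinase Lck, bound to the coreceptors CD4 or CD8, phosphorylates the CD3 chains and so starts the signal. CD4 marks helper and regulatory T cells and CD8 marks cytotoxic T cells. Regulatory T cells are defined by the transcription factor Foxp3 and restrain other T cells. CTLA-4 and PD-1, encoded by Ctla4 and Pdcd1, are inhibitory receptors that dampen T cell activation and are the targets of checkpoint antibodies in cancer.

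RNA was sequenced from 6 spontaneous tumors of female mice, 3 of them of the Osx-Cre;NT3 line and the other 3 of the FSP1-Cre;NT3 line. In both lines Cre switches on NT3, a form of NIK without its TRAF3 binding motif, which escapes degradation and activates NF-κB signaling. Tumors 13, 18 and 25 grew on the trunk of Osx-Cre;NT3 mice, with latencies of 150, 168 and 115 days. The FSP1-Cre;NT3 tumors were perineal in the case of tumors 27 and 36, with latencies of 101 and 52 days, and a trunk tumor in the case of tumor 29, with 72 days. Osx-Cre (Osx1-GFP::Cre Tet-OFF, mixed C57Bl/6J and CD1 background) is driven by Osterix in the osteolineage and was kept silent with doxycycline chow until weaning, whereas FSP1-Cre (S100a4-Cre, FVB/n background) is active mainly in fibroblasts with no such feeding described. The NT3 allele was on a C57Bl/6J background, and the study notes Cre activity of both drivers in cells of the blood lineage. Strain background, latency and doxycycline feeding therefore differed together with the line and cannot be told apart from it. Site overlaps with line in part, since tumor 29 alone is a trunk tumor of the FSP1-Cre;NT3 line. The study screened samples by qPCR for blood genes and Cd68 before sequencing, and average RNA integrity was lower for the Osx-Cre;NT3 tumors. In its staining CD45 infiltrate was greater in FSP1-Cre;NT3 tumors, which the study links to their ulceration. The part of these in the differences below was not tested. No tissue without NT3 was analysed here. T cells were not isolated, so in these bulk samples a higher level of a T cell gene because of more T cells cannot be told apart from more RNA per cell.

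Total counts ranged from 51824408 to 163297772 per tumor, the latter in tumor 18, and 3 counts correspond to between 0.0184 and 0.0579 CPM (counts relative to the size of the library). Counting error is therefore small for all but the lowest genes, and precision is set by how few tumors there were. Tumor 36 stood apart from the others, with a mean correlation of log2 CPM with the other 5 tumors of 0.886 across 16415 genes, against 0.929 to 0.947 for the rest. The differences of Foxp3, Ctla4 and Cd4, and the DESeq2 calls between lines among other gene lists, are given without it as well. Levels within a gene are given in CPM scaled by TMM, and levels of different genes are compared in RPKM, the deposited value per gene length.

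The 3 CD3 subunits were present in every tumor but did not vary together. Cd3g, the gamma chain, had 27.7, 54.8 and 10.4 CPM in tumors 13, 18 and 25, and 19.7, 14.1 and 21.3 CPM in tumors 27, 29 and 36. Cd3d, the delta chain, had 14.5, 29.3 and 5.41 CPM in the Osx-Cre;NT3 tumors, and 12.2, 7.54 and 11.1 CPM in the FSP1-Cre;NT3 tumors in the same order. Both were highest in tumor 18 and lowest in tumor 25, so that the Osx-Cre;NT3 tumors held both extremes and the lines overlapped. Cd3e, the epsilon chain, had 9.36, 9.05 and 6.84 CPM in tumors 13, 18 and 25, and 12.2, 7.00 and 9.57 CPM in tumors 27, 29 and 36. Tumor 25 was again lowest for Cd3e, but the highest was tumor 27, and tumor 18 was not raised. From the lowest to the highest tumor Cd3g spanned 5.27-fold and Cd3d 5.42-fold, whereas Cd3e spanned 1.78-fold, the narrowest of the 10 genes.

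In RPKM the ratio of Cd3g to Cd3d was nearly constant. Tumors 13, 18 and 25 had ratios of 2.49, 2.43 and 2.5, and tumors 27, 29 and 36 had ratios of 2.1, 2.43 and 2.5, a 1.19-fold span. The ratio of Cd3g to Cd3e was 4.16, 8.49 and 2.13 in the Osx-Cre;NT3 tumors, and 2.27, 2.83 and 3.13 in the FSP1-Cre;NT3 tumors. It spanned 3.98-fold and was highest in tumor 18. The ratio of Cd3d to Cd3e behaved alike, from 0.853 in tumor 25 to 3.49 in tumor 18. The 3 proteins enter the receptor together, but their RNA was thus not at a fixed ratio across these tumors. The Cd3e entry overlaps the antisense gene Gm48719 and the unclassified transcript Gm48720, and whether the counting used strand is not stated, so some of its counts could belong to them. The part of that overlap in the ratios was not tested.

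The 3 genes lie in 1 cluster on mouse chromosome 9 (build mm10): Cd3g at chr9:44969572-44980431 on the minus strand, Cd3d at chr9:44981786-44987052 on the plus strand and Cd3e at chr9:44998743-45009590 on the minus strand. Cd3g and Cd3d stand head to head with 1354 bases between their entries. Because Cd3g and Cd3d kept a steady ratio and Cd3e did not, their start regions are shown as windows of 300 bases that reach mostly upstream of each start site (RefSeq, GRCm38.p6). The windows are chr9:44980382-44980681 on the minus strand for Cd3g, chr9:44981536-44981835 on the plus strand for Cd3d and chr9:45009562-45009861 on the minus strand for Cd3e, and capitals mark the letters AGATAA, a match to the core that GATA factors bind.
Cd3g: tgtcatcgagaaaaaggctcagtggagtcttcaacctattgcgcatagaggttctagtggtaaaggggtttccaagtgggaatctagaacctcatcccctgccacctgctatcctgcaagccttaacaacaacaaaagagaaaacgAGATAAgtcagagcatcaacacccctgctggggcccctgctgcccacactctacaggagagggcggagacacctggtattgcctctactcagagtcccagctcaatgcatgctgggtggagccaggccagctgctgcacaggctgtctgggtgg
Cd3d: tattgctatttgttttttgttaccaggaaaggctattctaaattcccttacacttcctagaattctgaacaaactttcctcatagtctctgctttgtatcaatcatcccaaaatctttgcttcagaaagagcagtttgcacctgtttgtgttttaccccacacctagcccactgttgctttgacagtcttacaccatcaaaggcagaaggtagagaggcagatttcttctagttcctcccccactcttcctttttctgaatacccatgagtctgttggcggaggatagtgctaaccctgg
Cd3e: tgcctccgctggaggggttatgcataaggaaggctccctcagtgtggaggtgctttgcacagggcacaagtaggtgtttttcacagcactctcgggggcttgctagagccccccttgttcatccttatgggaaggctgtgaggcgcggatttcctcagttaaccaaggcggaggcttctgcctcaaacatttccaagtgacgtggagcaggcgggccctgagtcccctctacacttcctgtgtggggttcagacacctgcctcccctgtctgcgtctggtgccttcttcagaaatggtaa
The letters AGATAA were found on either strand of 11.2% of the 32851 promoter windows of the table. TGTGGT, the core bound by RUNX factors, was found in 16.8%, TATAAA, the core of a classical promoter box, in 13.6%, and a loose motif for NF-κB in 50.8%. Cd3g held AGATAA 104 bases before its start site and 1 match to the κB motif that did not overlap it. Cd3d and Cd3e held none of the 4 motifs, so Cd3g and Cd3d had none in common within these windows. Such matches describe the letters and not binding.

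Cd2 and Lck varied widely. Cd2, an adhesion receptor of T cells and natural killer cells that binds Cd48 in mice, had 7.62, 16.7 and 1.91 CPM in tumors 13, 18 and 25, and 10.3, 3.95 and 10.6 CPM in tumors 27, 29 and 36. Lck, the kinase that starts the signal, had 21.8, 38.3 and 7.15 CPM in the Osx-Cre;NT3 tumors, and 25.7, 12.9 and 19.3 CPM in the FSP1-Cre;NT3 tumors. Both were highest in tumor 18 and lowest in tumor 25, as were Cd3d and Cd3g, and neither separated the lines or the sites. Cd2 spanned 8.74-fold and Lck 5.36-fold. Relative to Cd3e in RPKM, Lck ranged from 0.653 in tumor 25 to 2.64 in tumor 18 and Cd2 from 0.351 to 2.32 in the same tumors. Cd2 lies at chr3:101275908-101287939 and Lck at chr4:129548344-129573641, both on the minus strand, and the Lck entry contains the microRNA gene Mir8119.

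The coreceptor genes differed in which tumors were high. Cd4 had 20.7, 19.9 and 16.1 CPM in tumors 13, 18 and 25, and 33.2, 16.4 and 33.6 CPM in tumors 27, 29 and 36. Both perineal tumors stood above all 4 trunk tumors for Cd4, and the trunk tumors lay within 16.1 to 20.7 CPM. Cd8a had 20.3, 27.2 and 10.7 CPM in the Osx-Cre;NT3 tumors, and 26.7, 10.3 and 13.4 CPM in the FSP1-Cre;NT3 tumors. Tumors 18 and 27 were high and tumors 25 and 29 low for Cd8a, with overlap of lines and of sites. Relative to Cd3e in RPKM, Cd4 was steady in the trunk tumors, at 1.03, 1.02 and 1.09 in tumors 13, 18 and 25 and 1.09 in tumor 29, and higher in the perineal tumors, at 1.26 in tumor 27 and 1.63 in tumor 36. Cd4 is also transcribed in some macrophages and dendritic cells, and Cd8a in a subset of dendritic cells. Cd8b1, which encodes the beta chain found mainly on cytotoxic T cells, was from 0.846 to 1.96 times Cd8a in RPKM, highest in tumor 18 and lowest in tumor 25. Cd4 lies at chr6:124864693-124888209 on the minus strand and Cd8a at chr6:71373427-71379171 on the plus strand.

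Foxp3 had 1.12, 3.03 and 1.18 CPM in tumors 13, 18 and 25, and 7.98, 3.46 and 7.44 CPM in tumors 27, 29 and 36. All 3 FSP1-Cre;NT3 tumors stood above all 3 Osx-Cre;NT3 tumors, although tumor 29 exceeded tumor 18 only narrowly, and both perineal tumors stood above all trunk tumors. Foxp3 was the only 1 of the 10 genes whose values did not overlap between the lines. Foxp3 lies at chrX:7579676-7595243 on the plus strand. In GENCODE M21 the gene begins 6032 bases further upstream, and the deposited entry overlaps Ccdc22, a protein-coding gene on the opposite strand, as well as Flicr and Gm36995. Counts from Ccdc22 could therefore be part of the low Foxp3 values, and their part in the difference was not tested.

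The checkpoint genes were low, and Ctla4 varied most. Ctla4 had 0.745, 3.83 and 0.338 CPM in tumors 13, 18 and 25, and 6.45, 1.13 and 7.72 CPM in tumors 27, 29 and 36. Both perineal tumors were above all trunk tumors, tumor 18 was next, and tumors 13, 25 and 29 were near or below 1 CPM. The lowest value rests on 24 counts in tumor 25, and the span from lowest to highest was 22.9-fold, the widest of the 10 genes. Pdcd1 had 3.89, 6.21 and 5.35 CPM in the Osx-Cre;NT3 tumors, and 8.63, 2.80 and 6.50 CPM in the FSP1-Cre;NT3 tumors. Again both perineal tumors were above all trunk tumors, here by a small margin over tumor 18, and tumor 29 was lowest. Pdcd1 spanned 3.09-fold. Ctla4 lies at chr1:60909025-60915830 on the plus strand and Pdcd1 at chr1:94038305-94052553 on the minus strand.

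**Figure D1:**
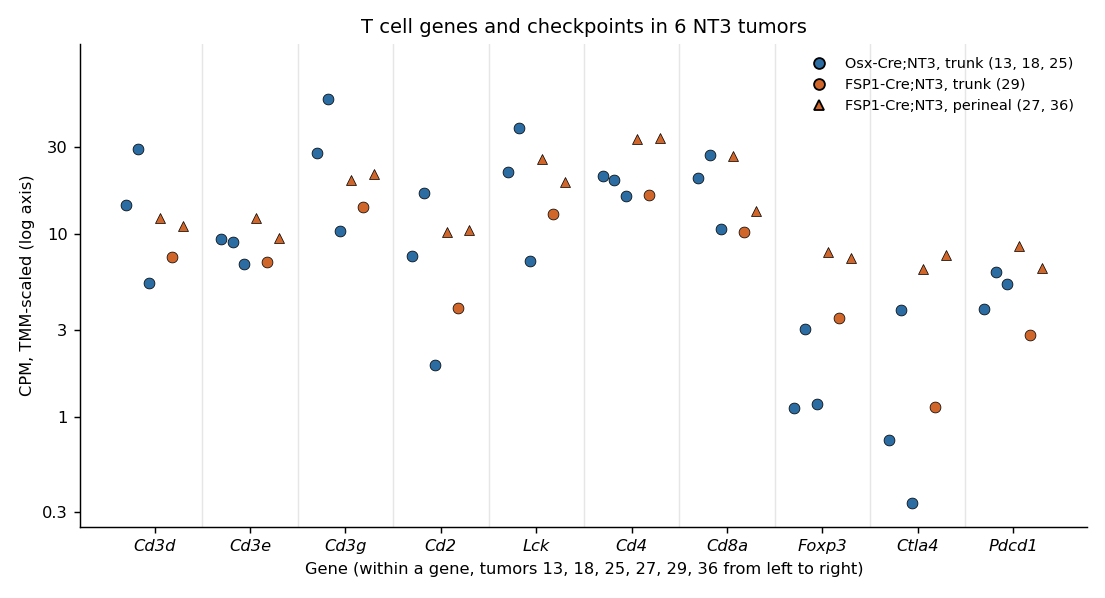
Levels of the 10 genes in TMM-scaled CPM (log axis), 1 point per tumor, with Osx-Cre;NT3 trunk tumors as blue circles, the FSP1-Cre;NT3 trunk tumor as an orange circle and the FSP1-Cre;NT3 perineal tumors as orange triangles. Cd3d, Cd3g, Cd2 and Lck peak in tumor 18 and are lowest in tumor 25, whereas for Cd4, Foxp3, Ctla4 and Pdcd1 both triangles lie above every circle.

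Across the 10 genes the plot of levels by tumor shows 2 main patterns. Tumor 18 was highest for 5 genes (Cd3d, Cd3g, Cd2, Lck and Cd8a), tumor 27 for 3 (Cd3e, Foxp3 and Pdcd1) and tumor 36 for 2 (Cd4 and Ctla4). Tumor 25 was lowest for 7 genes, tumor 29 for Cd8a and Pdcd1, and tumor 13 for Foxp3. The summed level of the 10 genes was 65.4 CPM in tumor 25 and 79.6 CPM in tumor 29, and from 128 to 208 CPM in the others. Tumor 18 is also the most deeply sequenced library, and the part of depth in its high values was not tested, though CPM is scaled to library size.

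In RPKM, Cd3g was the most abundant of the 10 genes in every tumor, with a median of 16.9 RPKM. The median was 7.42 RPKM for Cd3d, 6.94 for Lck, 6.24 for Cd2, 4.95 for Cd4, 4.84 for Cd3e and 4.16 for Cd8a, and the ranges over tumors of these 6 genes overlapped, so their order is not settled beyond the spread. Pdcd1 followed with a median of 2.35 RPKM and was below Cd8a in each tumor, although the ranges of 1.16 to 3.95 and 2.63 to 7.53 RPKM overlapped. Ctla4 with 0.985 RPKM and Foxp3 with 0.644 RPKM were lowest and overlapped across tumors, with Ctla4 above Foxp3 in 4 of the 6 tumors.

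The first comparison asked whether T cell genes differed between the tumors of the lines. For Foxp3 the mean ± SD of 3 tumors was 6.30 ± 2.47 CPM in FSP1-Cre;NT3 and 1.78 ± 1.08 CPM in Osx-Cre;NT3 tumors, 3.53-fold higher by the fit. Its log2 fold change was 1.82 (95% interval from 0.48 to 3.16), with an unadjusted p of 0.0152 and an adjusted p of 0.458 by the quasi-likelihood test of edgeR (Benjamini-Hochberg adjustment over 16415 genes). Foxp3 thus did not pass the adjusted threshold of 0.05. None of the 10 genes did, nor did any of the 16415 genes (0% called). At an unadjusted p under 0.05, 1 of the 10 genes differed by edgeR (Foxp3, higher in FSP1-Cre;NT3), against 10.8% of all genes tested in either direction and 7.31% that were higher there. Values of 1 of the 10 did not overlap between the lines, against 17% of all genes in either direction and 9.03% that were higher in FSP1-Cre;NT3, so the 10 genes did not stand above the background. By DESeq2, which called 2.51% of all genes, 0 of the 10 passed, with Foxp3 at an adjusted p of 0.0557.

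Ctla4 had a log2 fold change near that of Foxp3, 1.63, but with an interval from -0.87 to 4.12 and overlap of the lines. Its mean ± SD of 3 tumors was 5.10 ± 3.50 CPM in FSP1-Cre;NT3 and 1.64 ± 1.91 CPM in Osx-Cre;NT3 tumors. The means of the CD3 genes went in different directions: Cd3g was at 18.4 ± 3.78 against 31.0 ± 22.4 CPM and Cd3d at 10.3 ± 2.43 against 16.4 ± 12.1 CPM, whereas Cd3e was at 9.59 ± 2.59 against 8.42 ± 1.37 CPM (FSP1-Cre;NT3 against Osx-Cre;NT3, SD, n = 3 each). Cd3g had a log2 fold change of -0.75 (95% interval from -2.08 to 0.57) and Cd3e of 0.19 (from -0.55 to 0.92). The differences of Cd2, Lck, Cd8a and Pdcd1 were small beside their intervals, with log2 fold changes of -0.085, -0.22, -0.21 and 0.21. Cd4 was at 0.55 (95% interval from -0.21 to 1.31). The median log2 fold change of the 10 genes was 0.051, beside 0.015 over all genes tested, and 5 of the 10 were above 0, against 51.1% of all genes.

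Leaving out tumors changed several of these values. Without tumor 18 the Ctla4 log2 fold change was 3.23 and that of Foxp3 2.44, and those of Cd3d, Cd2, Lck and Cd8a turned to the other sign, at 0.043, 0.79, 0.41 and 0.11, all without passing the adjusted threshold in edgeR. Without tumor 36 the log2 fold changes were 1.68 for Foxp3 and 1.19 for Ctla4. Restricted to the 4 trunk tumors, where the FSP1-Cre;NT3 line is tumor 29 alone, the log2 fold change was 0.95 for Foxp3, -0.56 for Ctla4, -0.21 for Cd4 and -0.89 for Pdcd1. In DESeq2, which then called 3.01% of all genes without tumor 18, 21.6% without tumor 25 and 4.39% without tumor 29, Foxp3 passed without tumor 18 (log2 fold change 2.44, adjusted p = 0.000598) and without tumor 29 (2.09, adjusted p = 0.0193), Ctla4 passed without tumor 18 (3.22, adjusted p = 0.0156), and Cd3g and Cd3d passed without tumor 25 with lower levels in the FSP1-Cre;NT3 line (-1.19, adjusted p = 0.0197, and -1.12, adjusted p = 0.0473).

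The second comparison set the 2 perineal tumors, 27 and 36, against the 4 trunk tumors. Both perineal tumors are from FSP1-Cre;NT3 mice, so this comparison shares tumors with the first and site and line overlap. Values of 5 of the 10 genes did not overlap between the sites (Cd3e, Cd4, Foxp3, Ctla4 and Pdcd1), all higher in the perineal tumors and by small margins for Cd3e and Pdcd1, against 10.3% of all genes tested that were higher there without overlap and 19.6% without overlap in either direction. At an unadjusted p under 0.05 by edgeR, 3 of the 10 genes (Cd4, Foxp3 and Ctla4) were higher in perineal tumors, against 8.88% of all genes, and 0 were lower, against 1.63%. None of the 10 passed the adjusted threshold, nor did any of the 16971 genes tested (0% called). The median log2 fold change of the 10 genes was 0.44 beside -0.020 over all genes tested, and 8 of the 10 were above 0, against 48.5% of all genes. In both comparisons the 10 genes were measured in the same tumors and are not replicates of each other. Between sites 17 of 19 other T cell receptor signalling and surface genes were also above 0, and 3 of 8 macrophage genes.

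Cd4 had the narrowest interval, with a log2 fold change of 0.86 (95% interval from 0.35 to 1.37), 1.82-fold, an unadjusted p of 0.00506 and an adjusted p of 0.279 by the quasi-likelihood test of edgeR (Benjamini-Hochberg adjustment). By DESeq2 its adjusted p was 0.0173, the only 1 of the 10 genes past the threshold there, where 3.52% of all genes passed. That call of Cd4 held without tumor 18 or tumor 25 (adjusted p = 0.0331 and 0.0388 by DESeq2) and was lost without tumor 13 or 29 (adjusted p = 0.105 and 0.0653 by DESeq2). Without tumor 27 or 36 only 1 perineal tumor is left, so such a fit cannot settle the call. The log2 fold changes of Cd4 by DESeq2 were then 0.88 and 0.83. Foxp3 had a log2 fold change of 1.80 (from 0.51 to 3.10; adjusted p = 0.328 by edgeR and 0.0603 by DESeq2). Ctla4 had 2.21 (from 0.21 to 4.21; adjusted p = 0.428 by edgeR and 0.169 by DESeq2), 4.64-fold. Pdcd1 was at 0.72, Cd2 at 0.46 and Cd3e at 0.43, while Cd8a at 0.22, Lck at 0.16, Cd3d at -0.29 and Cd3g at -0.39 lay nearer 0, each with an interval that spans 0.

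Without tumor 36, which leaves 1 perineal tumor, the log2 fold changes by edgeR were 0.86 for Cd4, 1.86 for Foxp3 and 2.08 for Ctla4. Without tumor 18 Ctla4 was at 3.26, and Cd3d and Cd3g changed sign to 0.34 and 0.23. In DESeq2, Ctla4 (log2 fold change 3.26, adjusted p = 3.36e-05) and Foxp3 (2.00, adjusted p = 0.0407) passed without tumor 18, where 3.88% of all genes did. Without tumor 29 the split of sites is also the split of lines. The Foxp3 call there (2.09, adjusted p = 0.0193, where 4.39% of all genes passed) is therefore the fit already given between lines and no second result. Within the FSP1-Cre;NT3 line, the 2 perineal tumors against tumor 29 alone gave 1.02 for Cd4, 1.14 for Foxp3 and 2.64 for Ctla4, with 0.62 for Cd3d and 0.53 for Cd3g. With line as a covariate the values were 1.02, 1.15 and 2.64 for Cd4, Foxp3 and Ctla4.

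**Figure D2:**
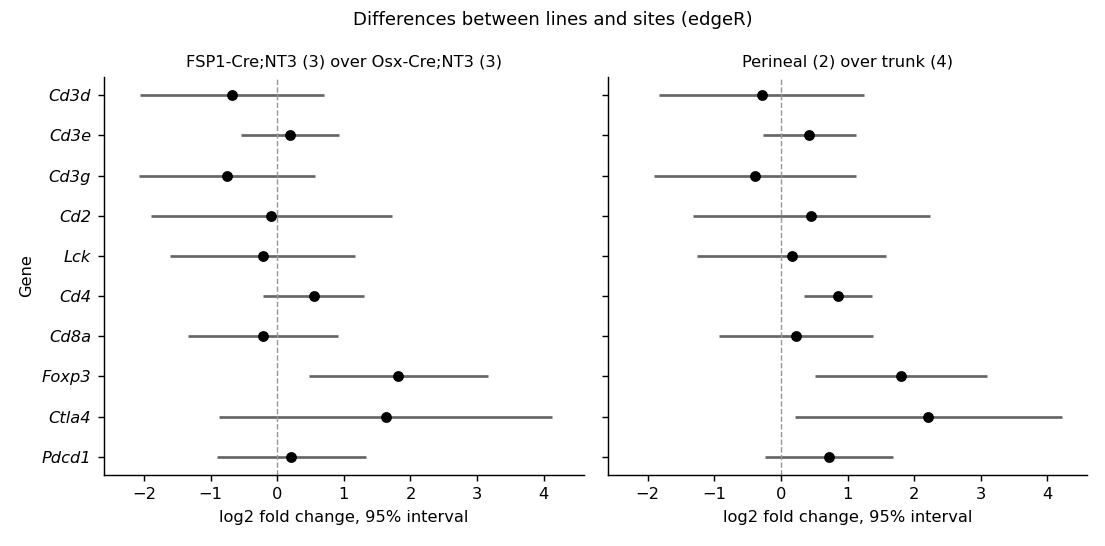
log2 fold changes of the 10 genes (points) with 95% intervals (lines) from edgeR's quasi-likelihood fits, on the left for the lines (FSP1-Cre;NT3 relative to Osx-Cre;NT3, 3 tumors each) and on the right for 2 perineal over 4 trunk tumors. Only Foxp3 on the left and Cd4, Foxp3 and Ctla4 on the right have intervals above 0, and no gene passed the adjusted threshold.

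Ratios between members do not depend on how libraries are scaled, and 4 of them were compared between the lines in RPKM with a two-sided exact permutation test, in which 3 against 3 tumors cannot give a p below 0.1. Tumors 13, 18 and 25 had Foxp3 to Cd4 ratios of 0.0425, 0.120 and 0.0578, and tumors 27, 29 and 36 had 0.190, 0.166 and 0.174. All FSP1-Cre;NT3 tumors were above all Osx-Cre;NT3 tumors and close to each other, and tumor 29 lay near the perineal tumors of its line. The perineal tumors also lay above every trunk tumor, narrowly so for tumor 29, so neither lines nor sites overlapped for this ratio. The mean log2 ratio was 1.41 higher in FSP1-Cre;NT3 tumors (exact permutation p = 0.1, the smallest possible, and 0.4 adjusted over the 4 ratios). Within the FSP1-Cre;NT3 line the ratio thus spanned little, while Foxp3 itself was lower in tumor 29 than in tumors 27 and 36.

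For Cd8a to Cd4 the ratios were 0.969, 1.35 and 0.654 in the Osx-Cre;NT3 tumors, with 0.796, 0.622 and 0.393 for tumors 27, 29 and 36. It was highest in tumor 18 and lowest in tumor 36, and the lines overlapped. The difference in mean log2 ratio, FSP1-Cre;NT3 minus Osx-Cre;NT3, was -0.71 (exact permutation p = 0.2, 0.4 adjusted). The ratio of Ctla4 to Foxp3 ranged from 0.581 in tumor 25 to 2.58 in tumor 18 with a mean log2 difference of 0.060 (exact permutation p = 1), and that of Pdcd1 to Cd3e from 0.297 in tumor 29 to 0.582 in tumor 25 with -0.072 (exact permutation p = 0.6). Both overlapped between the lines, and the sign of both mean differences changed when single tumors were left out.

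**Figure D3:**
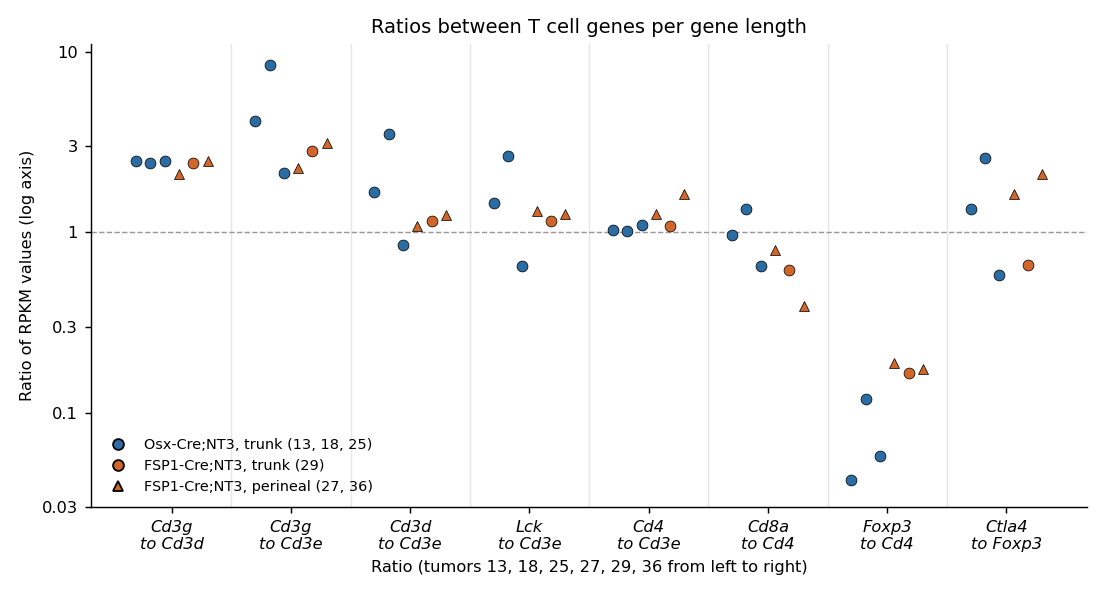
Ratios of RPKM values between genes (log axis), 1 point per tumor, with Osx-Cre;NT3 trunk tumors as blue circles, the FSP1-Cre;NT3 trunk tumor as an orange circle and perineal tumors as orange triangles, and the dashed line at 1. Cd3g to Cd3d stays within 2.1 to 2.5, whereas Cd3g to Cd3e reaches 8.49 in tumor 18, and Foxp3 to Cd4 is the ratio in which all 3 orange points lie above the blue ones.

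The genes whose pattern over the 6 tumors was most like the CD3 subunits were sought as those with the smallest SD of log2 CPM minus the mean log2 CPM of Cd3d, Cd3e and Cd3g. The closest 10 were Cd40, Skap1, Fxyd5, Cd7, Coro1a, Gm15441, Cd86, AF251705, Tnfaip8l2 and Ptprcap, with SDs from 0.117 to 0.168 over the 6 tumors. The median over all genes tested was 0.788. Skap1, a T cell adaptor, had 6.17, 11.9 and 2.84 CPM in tumors 13, 18 and 25, and 6.48, 3.57 and 5.41 CPM in tumors 27, 29 and 36, and Cd7, a T cell surface protein, ranged from 5.72 to 21.4 CPM. Cd40 and Cd86 are mainly known from B cells, macrophages and dendritic cells, Coro1a is an actin regulator of leukocytes and Ptprcap is bound to CD45. Among the CD3 genes themselves, Cd3d (0.235) and Cd3g (0.256) were close to this mean and Cd3e (0.482) less so, so the pattern is mainly that of Cd3d and Cd3g. Each CD3 gene is part of the mean, so its closeness is partly set in advance and is not like that of other genes. Lck (0.290) and Cd8a (0.320) were the closest among the members outside the CD3 genes, and closer than Cd3e. Foxp3 (1.23) and Ctla4 (1.52) were further from the CD3 pattern than the median gene. All of these rest on the same 6 libraries.

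Of 19 other genes of T cell receptor signalling and the T cell surface, 0 passed the adjusted threshold by edgeR between lines or sites. At an unadjusted p under 0.05, 0 differed between lines and 2 of the 19 were higher in perineal tumors, a share near the 8.88% of all genes. They were Cd28 and Icos, costimulatory receptors of T cells, which were also the 2 that DESeq2 called. Cd28 had 0.911, 2.09 and 0.422 CPM in tumors 13, 18 and 25, and 4.97, 0.949 and 5.25 CPM in tumors 27, 29 and 36. Icos had 5.38, 10.6 and 5.46 CPM, and 15.6, 6.67 and 19.4 CPM in the same order. Both were highest in the perineal tumors without overlap, with log2 fold changes of 2.21 and 1.31. The median log2 fold change of the 19 genes was 0.54 between sites and 0.16 between lines. The highest in CPM, which is not corrected for gene length in this and the following lists, were Thy1, an antigen also found on fibroblasts, with 63.4 to 201 CPM, the adaptor Lcp2 with 13.8 to 28.1 CPM and the adaptor Lat with 6.62 to 24.0 CPM.

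Among 13 other checkpoint and costimulatory receptors 0 passed by edgeR or DESeq2 in either comparison. Tigit, an inhibitory receptor, was alone at an unadjusted p under 0.05, higher in perineal tumors, as were 8.88% of all genes. It had 0.662, 2.00 and 0.957 CPM in the Osx-Cre;NT3 tumors, and 3.16, 1.18 and 3.56 CPM in tumors 27, 29 and 36, a log2 fold change of 1.47 between sites. The median of these 13 genes was 0.095 between sites and -0.085 between lines. The highest in CPM, Vsir (50.8 to 84.9 CPM), Tox (24.4 to 61.0 CPM) and Tnfrsf4 (15.1 to 34.0 CPM), are an inhibitory receptor also found on myeloid cells, a nuclear factor of developing and exhausted T cells, and the costimulatory receptor OX40. They peaked in tumors 36, 25 and 18 in that order, so Tox was highest where Cd3d, Cd3g, Cd2 and Lck were lowest.

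The 14 cytotoxic and natural killer genes had 0 calls by edgeR or DESeq2 and 0 at an unadjusted p under 0.05 in either comparison. Their summed level was highest in tumor 18, at 157 CPM, and from 37.6 to 87.6 CPM in the others. Gzma, a granzyme, had 9.73, 41.0 and 4.93 CPM in tumors 13, 18 and 25 and from 5.98 to 13.0 CPM in the FSP1-Cre;NT3 tumors, so that tumor 18 alone was high. Ctsw, a protease of cytotoxic cells, ranged from 9.18 to 31.5 CPM and Nkg7, a granule protein, from 4.93 to 22.5 CPM, both highest in tumor 18 and lowest in tumor 25.

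Of 11 helper and regulatory T cell genes 10 were tested and 0 passed by edgeR, with 1 between lines and 2 between sites higher at an unadjusted p under 0.05, against 7.31% and 8.88% of all genes. Il2ra, the interleukin 2 receptor chain carried by regulatory and activated T cells, had 5.88, 11.2 and 7.10 CPM in tumors 13, 18 and 25, and 18.3, 6.18 and 19.3 CPM in tumors 27, 29 and 36. The perineal tumors were highest, with a log2 fold change of 1.30 between sites that DESeq2 called (adjusted p = 0.0230). Gata3, which directs helper T cells of type 2 and is also expressed in epithelium, had 2.28, 2.42 and 1.72 CPM in the Osx-Cre;NT3 tumors, and 4.24, 3.23 and 7.13 CPM in the FSP1-Cre;NT3 tumors. The lines did not overlap for Gata3, with a log2 fold change of 1.19 and an unadjusted p of 0.0266 by edgeR. Bcl6, a factor of follicular helper T cells, had the highest mean CPM of the list. It was lowest in tumor 18 at 9.59 CPM and highest in tumor 25 at 33.8 CPM, the reverse of Cd3d, Cd3g, Cd2 and Lck. From bulk RNA the cells that Bcl6 came from cannot be told, and the same holds for Tox above and Tcf7 and Lef1 below. Il2, Il4, Il10, Il17a and Il21 were at most 1.06 CPM in any tumor.

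All 8 naive T cell and homing genes had a positive log2 fold change in both comparisons, against 51.1% of all genes between lines and 48.5% between sites. Some were close to 0: between lines and sites Tcf7 was at 0.023 and 0.062 and Lef1 at 0.15 and 0.071, with standard errors from 0.36 to 0.47. The 2 comparisons share tumors, and genes measured in the same tumors are not replicates. Medians were 0.48 between lines and 0.39 between sites, and 0 passed by edgeR. At an unadjusted p under 0.05, 1 and 2 of the 8 were higher, against 7.31% and 8.88% of all genes. Klf2, a factor of resting T cells and also of endothelium, had 7.91, 6.55 and 6.87 CPM in tumors 13, 18 and 25, and 17.8, 8.82 and 16.2 CPM in tumors 27, 29 and 36. Neither lines nor sites overlapped for Klf2, and DESeq2 called it between sites (log2 fold change 1.16, adjusted p = 0.000928). S1pr1, Il7r and Tcf7 were highest in CPM, with 25.8 to 44.6, 11.4 to 29.3 and 9.36 to 22.0 CPM, and peaked in tumors 27, 18 and 25 in that order.

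The ligands of the members moved unevenly. Cd274, which encodes the PD-1 ligand PD-L1, had 6.0, 7.70 and 6.51 CPM in tumors 13, 18 and 25, and 13.8, 7.77 and 21.0 CPM in tumors 27, 29 and 36. Pdcd1lg2, which encodes PD-L2, had 0.621, 1.40 and 0.563 CPM in the Osx-Cre;NT3 tumors, and 1.90, 0.846 and 5.28 CPM in the FSP1-Cre;NT3 tumors. Both were highest in tumor 36 and next highest in tumor 27, with log2 fold changes of 1.31 and 2.05 between sites. DESeq2 called both, and edgeR called 0 of the 5 ligands. By edgeR these 2 of the 5 had an unadjusted p under 0.05, against 8.88% of all genes higher in perineal tumors. Cd80 and Cd86, ligands of CTLA-4 and CD28, had log2 fold changes of -0.32 and -0.020 between sites, and Cd48, the ligand of CD2, had -0.057. Cd48 ranged from 11.6 to 50.5 CPM and Cd86 from 14.5 to 34.6 CPM, both highest in tumor 18, as was Cd80 at 31.2 CPM.

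Thymocyte genes were near 0, with Rag1 at most 0.0845 CPM, Rag2 at most 0.0414 CPM, Ptcra at most 0.282 CPM and Dntt at most 0.750 CPM. Of 10 T cell receptor constant and gamma delta T cell genes 3 were matched in the table and 0 passed by edgeR. At an unadjusted p under 0.05, 1 of the 3 was higher in FSP1-Cre;NT3 tumors, against 7.31% of all genes, and 0 differed between sites. Cd163l1, a scavenger receptor of gamma delta T cells, was at 1.71 CPM in tumor 18, its lowest, and at 23.1 CPM in tumor 29, its highest, and Xcl1, a chemokine of cytotoxic cells, from 1.72 to 11.3 CPM. Zbtb16, a factor of innate-like T cells, had 5.26, 1.78 and 4.98 CPM in tumors 13, 18 and 25, and 8.14, 30.8 and 12.2 CPM in tumors 27, 29 and 36. The lines did not overlap for Zbtb16, and DESeq2 called it between lines (log2 fold change 2.08, adjusted p = 0.0392).

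Markers of other cells moved with some of these genes. The 5 mast cell genes summed to 275 to 337 CPM in the FSP1-Cre;NT3 and 5.72 to 72.1 CPM in the Osx-Cre;NT3 tumors, and all 5 (such as Cpa3, Mcpt4, Cma1 and Tpsb2, which encode proteases of mast cell granules) were higher in FSP1-Cre;NT3 tumors at an unadjusted p under 0.05, against 7.31% of all genes, with 4 called by DESeq2. The 5 neutrophil genes summed to 163 and 478 CPM in the perineal tumors and 21.1 to 64.2 CPM in the trunk tumors, and DESeq2 called all 5 between sites (S100a8, S100a9, Csf3r, Cxcr2 and Retnlg) and S100a9 alone between lines. By edgeR 0 of either list passed the adjusted threshold, while the 5 neutrophil genes had an unadjusted p under 0.05 between sites and 4 of them between lines, against 8.88% and 7.31% of all genes in that direction. The part of mast cells and neutrophils in the differences of Foxp3, Cd4 and Ctla4 was not tested.

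The 6 pan-leukocyte genes summed to 624 to 1191 CPM, highest in tumor 18 and lowest in tumor 29, with overlap of the lines and 921 and 1013 CPM in the perineal tumors. Among them Ptprc, which encodes CD45, had 62.1, 91.7 and 61.2 CPM in tumors 13, 18 and 25, and 113, 52.8 and 115 CPM in tumors 27, 29 and 36. It was highest in the perineal tumors without overlap, as was Cd4, with a log2 fold change of 0.77 and an unadjusted p of 0.0191 by edgeR. Lcp1, Laptm5 and Coro1a had the highest CPM of the list, up to 499, 186 and 198 CPM. Per length Cd3e was from 0.327 to 0.595 times Ptprc, lowest in tumor 36 and highest in tumor 13.

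The 8 macrophage genes summed to 1706 to 3878 CPM in Osx-Cre;NT3 and 1620 to 2068 CPM in FSP1-Cre;NT3 tumors, mostly from Lyz2, C1qb and C1qa. Mrc1, a scavenger receptor of tissue macrophages, had 16.2, 42.5 and 18.8 CPM in tumors 13, 18 and 25, and 114, 45.9 and 243 CPM in tumors 27, 29 and 36. It was the only 1 of the 8 called by DESeq2, in both comparisons. Most of the list went the other way between lines, with 2 of the 8 above 0 and a median log2 fold change of -0.57. Lyz2 was lower in FSP1-Cre;NT3 tumors, with a log2 fold change of -0.998 and an unadjusted p of 0.0363 by edgeR. The 7 dendritic and Langerhans cell genes summed to 98.7 to 151 CPM, led by Itgax, Cd207 and Zbtb46, with 0 called by either tool, 0 at an unadjusted p under 0.05 between sites and only Cd207 lower in FSP1-Cre;NT3 tumors at an unadjusted p of 0.0396 by edgeR. Of the 7 B cell genes, Ms4a1 was at most 1.09 and Cd79a at most 5.38 CPM, both highest in tumor 36. Blnk, at 97.6 to 198 CPM, made up most of the counts of that list, with Cd79b and Cd22 next. By either tool 0 were called, with 6 of the 7 tested by edgeR between lines and 7 between sites. At an unadjusted p under 0.05 by edgeR, 1 was higher in FSP1-Cre;NT3 and 3 in perineal tumors, against 7.31% and 8.88% of all genes. Of 6 lymph node genes, Ccl21a had 0 counts in every tumor. Counting error alone allows up to 0.0579 CPM in the shallowest, and more if each read of a pair was counted. How reads that match several genes were counted is not stated, so 0 counts do not bound the level of Ccl21a. The sums of the list ranged from 18.3 to 66.1 CPM, mainly from Cr2 and Ccl19. Madcam1 was at 18.8 CPM in tumor 18 and at most 2.98 CPM elsewhere. The 6 basal keratinocyte genes, among them Krt5, Krt14 and Krt15, summed to 5687 CPM in tumor 36 and 9956 to 14247 CPM in the others.

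The DESeq2 calls among these lists changed when single tumors were left out. Between sites 12 genes of the lists were called (Cd28, Icos, Il2ra, Klf2, Cd274, Pdcd1lg2, Mrc1 and the 5 neutrophil genes). Without tumor 36, where 0.0807% of all genes passed, 0 of the 12 were called, although their log2 fold changes by edgeR were still from 0.91 to 2.87 and 9 of them had an unadjusted p under 0.05. The fit without tumor 36 leaves 1 perineal tumor, so it cannot settle the calls between sites. All 12 were called without tumor 18, where 3.88% of all genes passed. Without tumor 25 it was 9, with 660 of all 16820 genes called, and without tumor 13 it was 5, with 318 of 16887. Without tumor 29 the split of sites is also the split of lines. The 8 called there, beside 4.39% of all genes, are therefore no separate check of site. Between lines 7 genes were called (Cma1, Cpa3, Mcpt4, Tpsb2, Mrc1, S100a9 and Zbtb16). Tpsb2 alone was called without tumor 36, where 188 of all 16641 genes passed. Without tumor 27 it was 3, with 460 of 16792 genes passing, and without tumor 13 it was 4, with 230 of 16887. Without tumor 18 or tumor 29 it was 5, beside 3.01% and 4.39% of all genes. All 7 were called without tumor 25, where 21.6% of all genes passed.

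**Figure D4:**
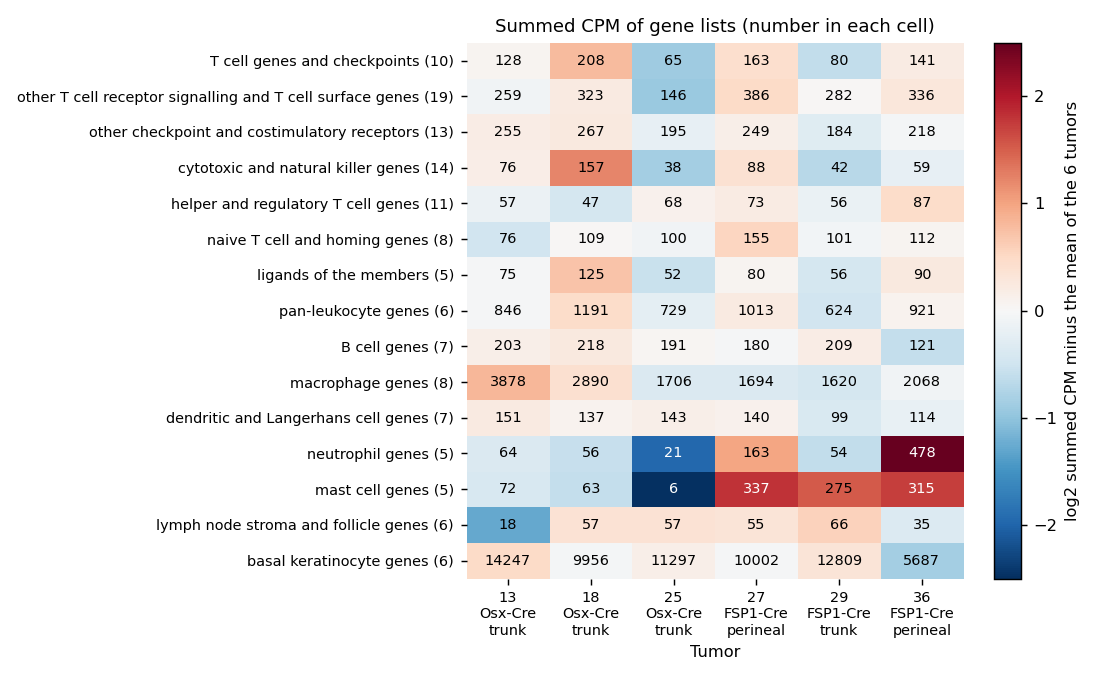
Summed CPM of gene lists (numbers in the cells; number of genes found in brackets) in the 6 tumors, with color showing log2 summed CPM minus the mean of the 6 tumors for that list. The 10 T cell and checkpoint genes are highest in tumor 18 and lowest in tumor 25, mast cell genes are high in all FSP1-Cre;NT3 tumors, and neutrophil genes are high in perineal tumors 27 and 36.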

How the data were processed

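Messenger RNA libraries of 6 tumors were sequenced on an Illumina HiSeq2500. The authors deposited raw counts per gene without normalization, and RPKM values, which take gene length and library size into account. The study's methods name HISAT2 and featureCounts on mm10, whereas the submitters' processing notes name TopHat2 2.0.6 and HTSeq on mm10, and which of them made the table is not settled. The gene annotation and the strandedness are not given in the sources used here. Every deposited count is even. Whether each read of a pair was counted is not stated, and fragments may be fewer than counts. The limit of 3 counts covers counting error alone, as no molecular identifiers were used, whereas the 95% intervals come from the edgeR fits and include the spread between tumors. Groups were taken from the sample titles and sites from the tissue labels. The tumors carry different numbers in the labels, but nothing else in the labels states that they came from separate mice, so the p-values measure the spread between these samples.

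Counts as deposited were filtered with filterByExpr, scaled by TMM and tested with edgeR 4.0.16 (R 4.3.3, glmQLFit and glmQLFTest) with Benjamini-Hochberg adjustment over all genes tested and a threshold of 0.05, without covariates. The fits were tested on simulated counts with known changes before use, where DESeq2, unlike edgeR, called clearly more unchanged genes than its threshold allows for. Alternatives were DESeq2 1.42.0, library sizes alone, upper-quartile scaling, other filters on low counts, halved counts, the other label as a covariate, trunk or FSP1-Cre;NT3 tumors alone, and leaving out each tumor. DESeq2 without each tumor was added after the data had been seen. Ratios of RPKM used an exact permutation test over 6 tumors with a pseudocount of 0.1 RPKM or counts with a prior count of 2 as alternatives. The 10 genes and the gene lists were chosen with earlier results of these data known. Named are the 10 genes and, from each list, up to 3 genes with the highest mean CPM, up to 4 with the smallest unadjusted p under 0.05 in either comparison, and genes with 0 counts throughout, as well as the 10 genes most like the CD3 genes (prior count 2). Cd8b1, Rag2 and the interleukins were named after their values were seen. Of 145 list genes 137 were found, 3 of them under an older symbol. Promoters are from RefSeq (GRCm38.p6), which had 8 of the 10 genes, and positions were compared with GENCODE M21. Gene entries with a repeated symbol (43) were kept apart. Some genes that this rule names are not reported here. No benign tissue was analysed here.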

Additional observations from a re-analysis of the deposited data

Results flagged for a closer look

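The summed level of the 7 B cell genes stood out in tumor 36, at 6.92 on the log2 CPM scale against 7.49 in the next lowest tumor, a gap of 0.680 of the whole range of the 6 tumors by Dixon's test. It was 1 of 30 levels examined this way, of which chance alone would flag 1.5. Blnk, at 97.6 CPM in tumor 36 and 162 to 198 CPM in the others, makes up most of that sum, while Ms4a1 and Cd79a were highest in tumor 36. Among the 10 T cell and checkpoint genes 0 were flagged.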

How the results depend on the processing

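By edgeR, 0 genes and 0 of the 10 T cell genes were called between lines under every alternative run. DESeq2 called 412 genes and 0 of the 10 between lines, and 598 genes and 1 of the 10 (Cd4) between sites. Leaving out each tumor gave from 0 to 3637 genes and from 0 to 2 of the 10 between lines, and from 0 to 1485 genes and from 0 to 3 of the 10 between sites, over both tools. In edgeR the site comparison called 567 genes without tumor 27 and 2 without tumor 25, with 0 of the 10. DESeq2 without tumors 13, 18, 25, 27, 29 and 36 called 230, 503, 3637, 460, 736 and 188 genes between lines and 318, 649, 660, 1485, 736 and 14 between sites. The site fits without tumor 27 or 36 leave 1 perineal tumor, so their counts settle no call. Without tumor 29 the splits of sites and lines are the same fit. The cause of the changes in these counts was not tested. Foxp3 kept its sign in all 14 alternatives of both comparisons (log2 fold changes from 0.95 to 2.44 between lines and from 1.14 to 2.06 between sites). Between sites so did Cd4 (from 0.77 to 1.02), Ctla4 (from 1.83 to 3.26), Pdcd1 (from 0.47 to 1.43), Cd3e (from 0.21 to 0.63) and Cd2 (from 0.086 to 1.39). Between lines Cd3g kept the opposite sign to Foxp3 (from -1.23 to -0.056). Between lines, signs turned with site as a covariate for Cd3e (-0.27), Cd4 (-0.21), Ctla4 (-0.55) and Pdcd1 (-0.88), on trunk tumors alone for Cd3e (-0.27), Cd4 (-0.21), Ctla4 (-0.56) and Pdcd1 (-0.89), and for Cd2 with library sizes alone (0.056). Leaving out each tumor gave ranges that cross 0 between lines for Cd3d (-1.15 to 0.043), Cd3e (-0.050 to 0.34), Cd2 (-0.62 to 0.79), Lck (-0.70 to 0.41), Cd8a (-0.75 to 0.11) and Pdcd1 (-0.18 to 0.52), and between sites for Cd3d (-0.61 to 0.34), Cd3g (-0.71 to 0.23), Lck (-0.17 to 0.69) and Cd8a (-0.41 to 0.64). The mean log2 ratio of Ctla4 to Foxp3 then ranged from -0.50 to 0.57 and that of Pdcd1 to Cd3e from -0.34 to 0.19. Between sites, signs turned with line as a covariate for Cd3d (0.62) and Cd3g (0.53) and within FSP1-Cre;NT3 tumors for Cd3d (0.62) and Cd3g (0.53). The ratio of Ctla4 to Foxp3 turned on trunk tumors alone (-0.93). No paired analysis was possible because the tumor numbers in the labels all differ, so the groups share no replicate number.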
